A study of Mus musculus with 2 samples.

Results

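The interferon-induced transmembrane genes of the mouse Ifitm cluster, Ifitm1, Ifitm2, Ifitm3, Ifitm5 and Ifitm6, were examined in endogenous CD8+ T cells of melanoma-bearing mice. The family was chosen by the measured difference of Ifitm1 on these same arrays together with its gene name, and its close relatives were added by symbol, so the values below are a description. All 5 genes had a probe set, out of 19505 named genes on the array, and each had exactly 1. Female C57BL/6 mice, 6 to 8 weeks of age, were inoculated with 200000 B16F10 melanoma cells. In the CTXpre/CD4post group, mice received 300 mg/kg cyclophosphamide on day 3, 2000000 Pmel-1 CD8+ T cells on day 5, which were Thy1.1-marked, primed ex vivo and carried a transgenic receptor for a melanoma antigen, 10000 IU of IL-2 daily for 3 days, and 200 µg of the CD4-depleting antibody GK1.5 on days 10, 17 and 24. The CTXpre group received the same cyclophosphamide, Pmel-1 cells and IL-2 without the antibody, so no group in the comparison was free of chemotherapy or transferred cells. On day 25, CD8-positive, Thy1.1-negative cells were sorted from inguinal lymph nodes and spleen, and each group was read on 1 array that held the RNA of 5 mice together. With n = 1 per group there is no replicate check, no error and no test for any difference below, and the number of arrays limits the precision.

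IFITM proteins are small membrane proteins that interferons induce in most cell types and that hinder the fusion of enveloped viruses with cellular membranes. In human cells, IFITM1 lies mainly at the cell surface, where it associates with the tetraspanin CD81, whereas IFITM2 and IFITM3 cycle through endosomes. IFITM5 is best known from bone-forming osteoblasts.

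Levels are log2 values after robust multi-array averaging, and differences were taken as CTXpre/CD4post minus CTXpre. Probe sets differ in brightness for the same amount of RNA, so only differences, never levels, were compared between genes. As a background bound, each array's 95th percentile was taken over 1467 probe sets for chemosensory receptors (smell, pheromone, taste and trace-amine receptors), which gave 4.36 for CTXpre/CD4post and 4.35 for CTXpre. By construction some of these receptor probe sets pass the bound. A level above it, called above background here, therefore does not by itself show that a gene is expressed. The CD8 chains that defined the sort had levels of 11.72 in CTXpre/CD4post and 11.47 in CTXpre for Cd8a, and of 11.80 in CTXpre/CD4post and 11.70 in CTXpre for Cd8b1. All 8 measured defining markers of CD8 T cells lay above the bound on both arrays, with a median difference of 0.07.

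The family did not differ between the groups as a block. Ifitm1 was 4.13-fold higher in CTXpre/CD4post cells, Ifitm3 was 1.70-fold lower, and Ifitm2 and Ifitm6 stayed within 1.5-fold. Ifitm5 was not above background. Of the 5 members, 4 were above background, all on both arrays. Among these 4, 1 was higher by 2-fold or more and 0 were lower by that much. The background shares, over the 12851 genes that passed the bound on either array, were 0.552% higher and 0.537% lower by 2-fold or more. The member past 2-fold is the gene on which the family was chosen, so its count is not read against that share. At 1.5-fold the members past the threshold were Ifitm1, higher, and Ifitm3, lower, against 3.07% of genes higher and 3.37% lower.

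Ifitm1, whose human counterpart is a surface protein of leukocytes, had a level of 8.22 in CTXpre/CD4post cells and 6.18 in CTXpre cells. Both levels lay well above the bound, by 3.86 in CTXpre/CD4post and by 1.83 in CTXpre, so the fold value is measured on both sides. The difference of 2.05 ranked 6 of 12851 genes above background, and past 3-fold higher lay 0.140% of them. The 5 genes with a higher difference were Hrh4, Ccr8, Actg2, Ccr4 and S100a4, of which 2, Actg2 and S100a4, were above background in CTXpre. Actg2 only just passed, with 4.36 in CTXpre against the bound of 4.35, and S100a4 had 5.25 in CTXpre. Among 2696 genes whose mean level lay within 0.5 of that of Ifitm1, 0 had a higher difference, and the central 95% of them differed by -0.53 to 0.48. Because the family was chosen by this same difference, the rank and the place among genes of like level are only a description.

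Ifitm3, the endosomal member best known for restricting influenza virus, ran the opposite way. Its level was 6.91 in CTXpre/CD4post cells and 7.67 in CTXpre cells, a difference of -0.76. It ranked 207 from the lowest of 12851 genes, and 21 of 2594 genes of like level had a lower difference. The central 95% of those genes ran from -0.47 to 0.46, so Ifitm3 lay outside the range in which most genes of its brightness fell, though with 1 array per group that range is the spread between genes and not between mice. In RNA from a sorted bulk population, fewer cells of a type and less RNA per cell cannot be told apart.

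Ifitm2, whose human counterpart shares the endosomal location of IFITM3, had nearly equal levels of 8.05 in CTXpre/CD4post cells and 8.08 in CTXpre cells. Its difference of -0.03 lay inside the central 95% of genes of like level, -0.44 to 0.43. Ifitm6, a mouse member whose role is less well defined, had a level of 5.16 in CTXpre/CD4post cells and 5.48 in CTXpre cells. Its difference of -0.32 was also inside the range of its 2955 neighbours in level, -0.67 to 0.70. Neither gene could be told apart from the general scatter between the arrays. Ifitm5, the osteoblast member, had levels of 3.44 in CTXpre/CD4post and 3.56 in CTXpre, below the bound on both arrays, and no fold is given for it.

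**Figure D1:**
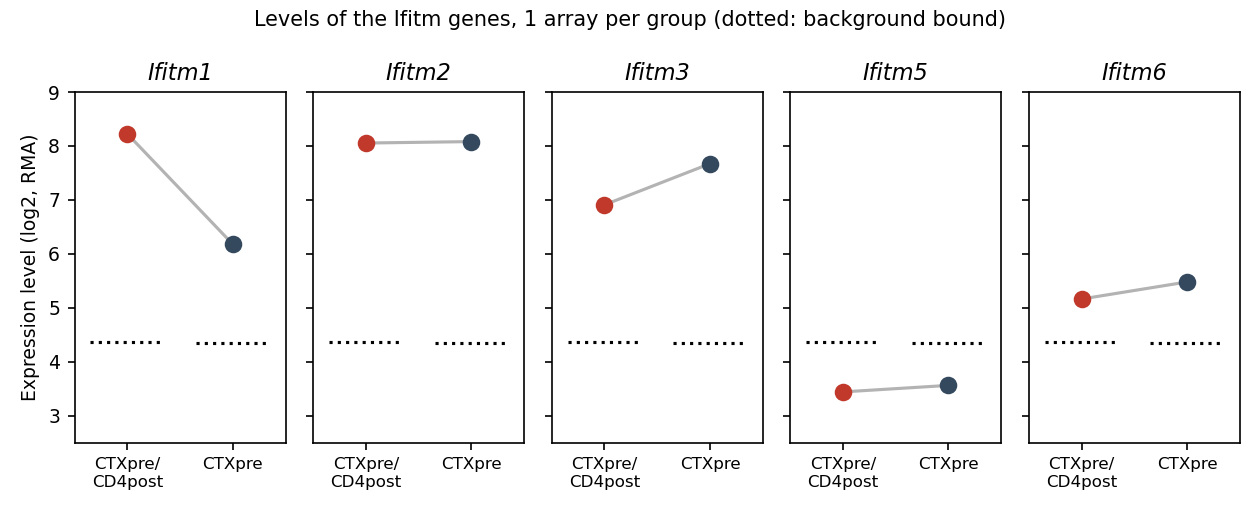
Expression levels (log2, vertical axis) of the 5 Ifitm genes in CTXpre/CD4post (red, left) and CTXpre (dark, right), 1 point per array, with the background bound of each array as a dotted line. Ifitm1 is higher in CTXpre/CD4post (8.22 against 6.18), Ifitm3 is lower (6.91 against 7.67), Ifitm2 is level, and Ifitm5 lies under the bound in both groups.

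Set against its relatives, Ifitm1 stood 2.36 above the median difference of the other 3 members above background, which was -0.32. That median is the value of Ifitm6, a dim gene whose difference lay within the scatter of genes of like level. The gap thus corresponds to a 5.14-fold change in the balance between Ifitm1 and Ifitm6. Ifitm1 was chosen by its own difference, so the gap is only a description. Pair by pair, the difference of Ifitm1 exceeded that of Ifitm2 by 2.07, that of Ifitm6 by 2.36 and that of Ifitm3 by 2.81. These are comparisons of change within the same pair of arrays, so a scaling factor common to all genes of an array cancels in them. The probe sequences were not analysed here, and whether transcripts of one member also bind the probes of another was not tested.

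**Figure D2:**
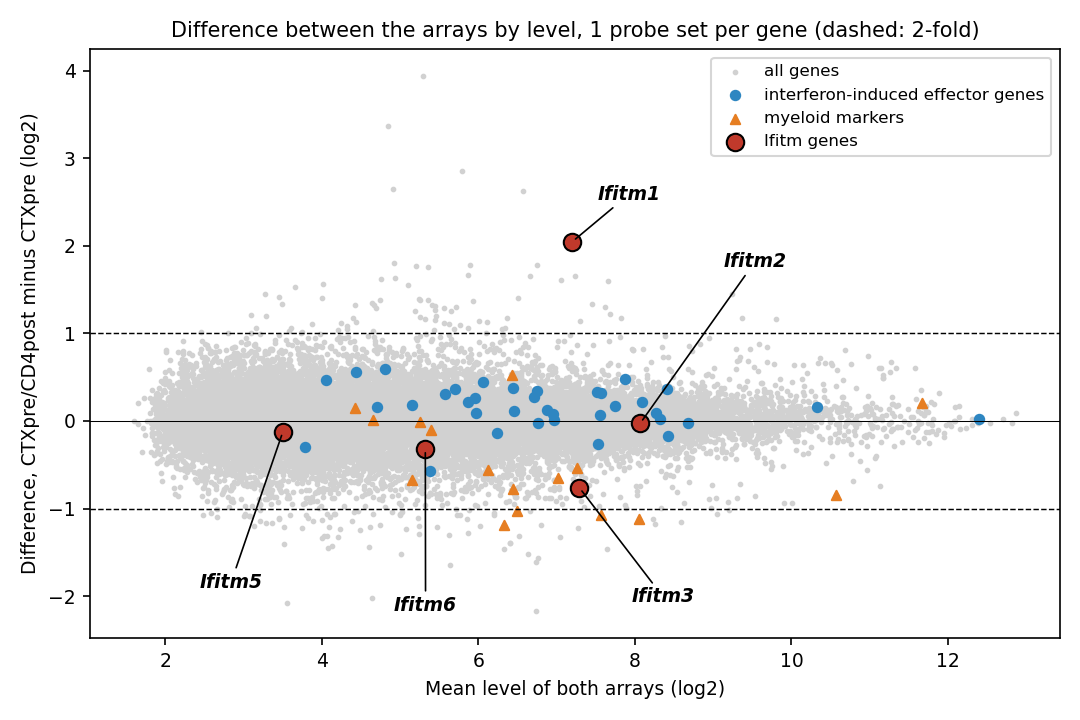
Difference between the arrays (log2, CTXpre/CD4post minus CTXpre, vertical axis) against the mean level of both arrays (log2, horizontal axis), 1 point per gene, with dashed lines at 2-fold. Ifitm1 (2.05) lies above the genes whose mean level is within 0.5 of its own, Ifitm3 (-0.76) lies at the lower edge among the myeloid markers (orange triangles), and Ifitm2, Ifitm5 and Ifitm6 lie within the cloud.

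The 5 genes lie side by side on mouse chromosome 7 in the order Ifitm5, Ifitm2, Ifitm1, Ifitm3 and Ifitm6, with 0 other protein-coding genes between them in the RefSeq annotation of GRCm38.p6. Thus the member with the high difference sits between Ifitm2 (-0.03) and Ifitm3 (-0.76). To see whether genes around the cluster differed too, the 5 nearest named protein-coding genes on each side were read. Of these 10 genes, 8 were above background, and 7 of these on both arrays. The 7 differed by -0.51 to 0.30, with a median of 0.15, and 0 of them reached 2-fold. Over all genes above background, 0.552% were higher and 0.537% lower by 2-fold or more, so that count is near the shares over all genes. B4galnt4, a glycosyltransferase next to Ifitm6, had 4.76 in CTXpre/CD4post and 3.82 in CTXpre. Its CTXpre level was below the bound, so it was at least 1.33-fold higher and its full difference is not measured. On the other side, Pgghg differed by 0.30 and the inflammasome gene Nlrp6 by -0.51, Nlrp6 having levels of 4.54 in CTXpre/CD4post and 5.05 in CTXpre. Psmd13 (0.30), Sirt3 (0.12), Pkp3 (0.20), Sigirr (0.05) and Ptdss2 (0.15) differed little, and Cox8b and Ano9 were below the bound on both arrays.

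**Figure D3:**
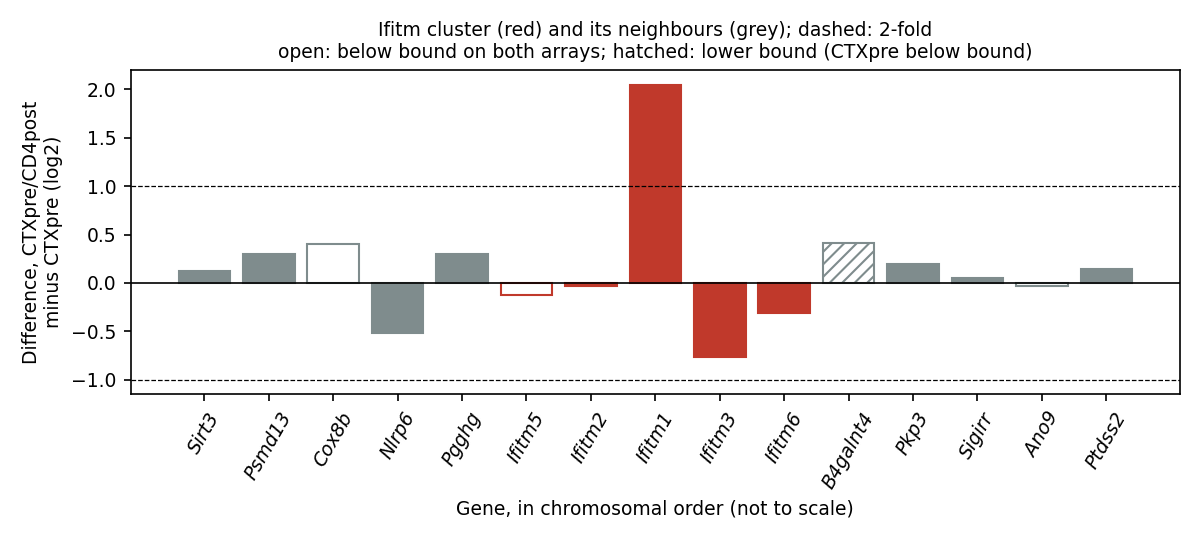
Difference (log2, CTXpre/CD4post minus CTXpre, vertical axis) of the Ifitm genes (red) and 5 named protein-coding genes on each side (grey) in chromosomal order, not to scale, with open bars for genes below the bound on both arrays and a hatched bar for the lower bound of B4galnt4 (at least 1.33-fold). Among the genes above the bound on both arrays, Ifitm1 (2.05) alone lies past the dashed 2-fold lines.

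Interferons act on such genes through promoter elements, the interferon-stimulated response element (ISRE) for type I interferon and the gamma-activated site (GAS) for interferon gamma. The promoters of Ifitm1 (higher in CTXpre/CD4post), Ifitm2 (nearly equal) and Ifitm3 (lower) are shown because they differ in these letters. They are RefSeq sequences of GRCm38.p6, 250 bases before and 30 bases after the annotated start, 5′ to 3′ on the strand of the gene, with ISRE letters in capitals. The windows are chr7:140967826-140968105 on the + strand for Ifitm1, chr7:140955932-140956211 on the - strand for Ifitm2 and chr7:141010715-141010994 on the - strand for Ifitm3.
Ifitm1: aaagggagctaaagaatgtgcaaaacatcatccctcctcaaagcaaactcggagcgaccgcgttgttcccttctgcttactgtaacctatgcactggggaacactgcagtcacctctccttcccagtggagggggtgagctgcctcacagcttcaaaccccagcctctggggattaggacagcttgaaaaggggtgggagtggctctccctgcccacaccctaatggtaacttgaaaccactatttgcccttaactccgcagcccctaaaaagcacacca
Ifitm2: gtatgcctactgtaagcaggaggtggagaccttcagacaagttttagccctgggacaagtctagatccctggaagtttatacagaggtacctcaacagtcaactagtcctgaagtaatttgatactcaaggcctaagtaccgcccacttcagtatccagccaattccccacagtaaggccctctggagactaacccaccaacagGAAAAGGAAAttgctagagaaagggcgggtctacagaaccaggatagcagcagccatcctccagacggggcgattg
Ifitm3: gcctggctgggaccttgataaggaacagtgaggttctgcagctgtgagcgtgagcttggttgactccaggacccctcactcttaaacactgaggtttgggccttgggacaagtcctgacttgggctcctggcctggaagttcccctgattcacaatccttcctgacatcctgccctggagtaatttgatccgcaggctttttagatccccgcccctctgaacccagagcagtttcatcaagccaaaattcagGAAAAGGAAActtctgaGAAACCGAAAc

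Both strands of the 300 bases from 250 before to 50 after the start were searched for the ISRE letters, GAAA and GAAA with any 2 bases between them, and for the GAS letters, TTCNNNGAA, which read the same on both strands. All 5 members had 1 such window in the table. Counting the first transcribed base as 1 and the base before it as -1, Ifitm2 held 1 ISRE at -46 to -37 and Ifitm3 held 2, at 3 to 12 and at 20 to 29. Ifitm3 also held a GAS at 14 to 22, which overlaps its second ISRE by letters, and Ifitm6 held a GAS at -10 to -2. Ifitm1 and Ifitm5 held 0 of either. Over all 32851 windows, 3.44% held the ISRE letters and 8.30% the GAS letters. Among 28 genes of a list of interferon-induced effector genes with a window, 57.1% held an ISRE and 35.7% a GAS, against 3.99% and 9.55% of all 27025 genes. RefSeq lists 4 transcripts for Ifitm1 and the table holds the window of 1 start, so an absent match says only that these letters are not in that window. A match describes letters, not a site in use.

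**Figure D4:**
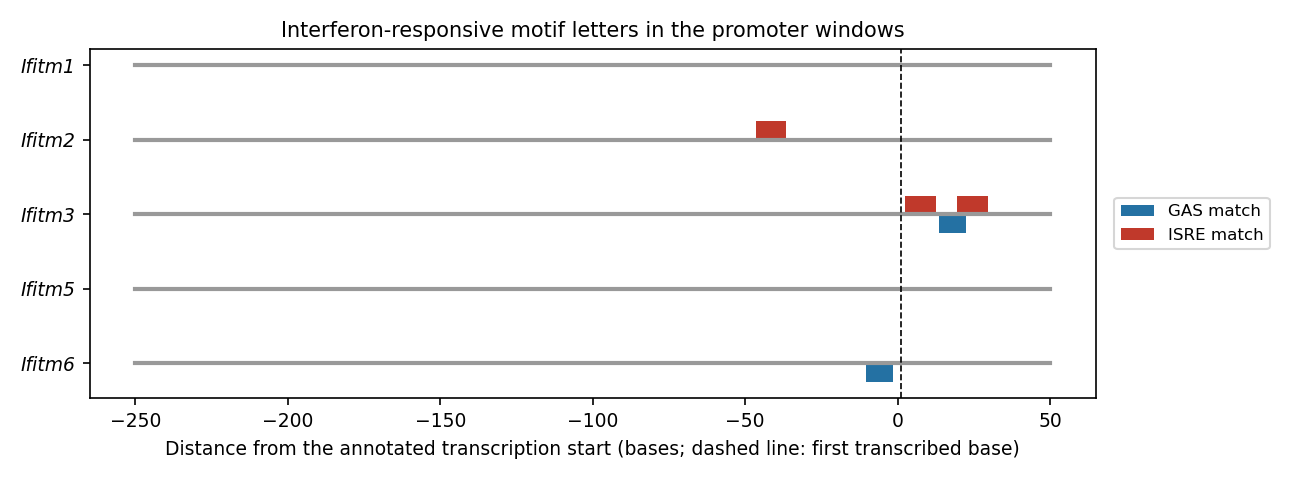
Position of ISRE (red) and GAS (blue) letters in the promoter windows of the 5 Ifitm genes, in bases from the annotated transcription start (horizontal axis). Ifitm3 carries 2 ISRE matches and 1 GAS match just after the start and Ifitm2 carries 1 ISRE match, whereas the windows of Ifitm1 and Ifitm5 carry 0 matches.

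The family was then set beside the other parts of the interferon pathway, ligand first. Ifng, which encodes interferon gamma, had a level of 7.48 in CTXpre/CD4post cells and 5.83 in CTXpre cells, 3.14-fold higher. It was the 1 gene past 1.5-fold among the 6 interferon genes above background. Over all genes above background, 3.07% were higher and 3.37% lower past 1.5-fold. The other 11 of 17 measured interferon genes were below the bound on both arrays. Ifnb1, which encodes interferon beta, had 4.90 in CTXpre/CD4post and 5.22 in CTXpre. Its receptor chains Ifnar1 (-0.06) and Ifnar2 (-0.02) hardly differed between the arrays. Of the interferon gamma receptor chains, Ifngr1 differed by -0.12, and Ifngr2, the signalling chain, had 6.63 in CTXpre/CD4post and 7.17 in CTXpre. The kinases Jak1 (-0.20), Jak2 (-0.31) and Tyk2 (0.08), and the transcription factors Stat2 (-0.04) and Irf9 (0.06), stayed within 1.5-fold. So did all 14 receptor and signalling genes above background, with a median of -0.03, a count near the shares over all genes. Usp18, an interferon-induced brake on the type I receptor, differed by 0.23.

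Other interferon-induced genes differed far less than Ifitm1. Of 36 measured effector genes, 34 were above background on at least 1 array, 0 reached 2-fold in either direction, and past 1.5-fold lay 1 gene higher and 0 lower, against 3.07% and 3.37% of all genes above background. These counts are thus near the shares over all genes. Their median difference was 0.16, against 0.01 over all genes above background, with 28 values above 0 and 6 below. The highest of those above background on both arrays was Iigp1, a GTPase that attacks parasite vacuoles, with 5.09 in CTXpre/CD4post and 4.51 in CTXpre, just past the 1.5-fold threshold. Isg15, the ubiquitin-like modifier, was at least 1.29-fold higher, with its CTXpre level below the bound. The tethering factor Bst2 had 8.11 in CTXpre/CD4post and 7.64 in CTXpre, and the antiviral GTPase Mx1 had 6.28 in CTXpre/CD4post and 5.84 in CTXpre. Ifit3 (0.07) and Ly6e (0.02) were nearly level. The lowest above background was Oas2, a sensor of double-stranded RNA, with 5.09 in CTXpre/CD4post and 5.67 in CTXpre. By measured levels, 0 of the 36 genes had a difference as high as that of Ifitm1 and 0 had one as low as that of Ifitm3, the whole list running from -0.57 to 0.59. Since Ifitm1 was picked for its value, this is a description.

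**Figure D5:**
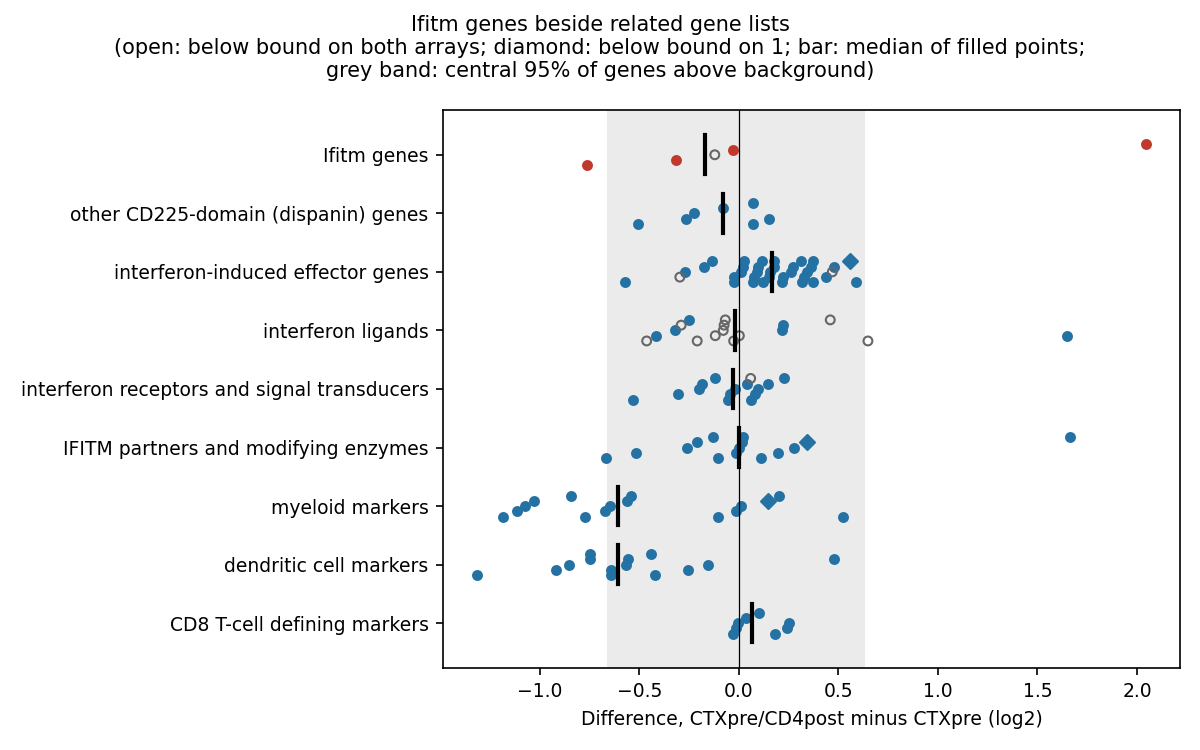
Difference (log2, CTXpre/CD4post minus CTXpre, horizontal axis) of each measured gene in 9 lists, with open circles for genes below the bound on both arrays, diamonds for genes below it on 1, a bar at the median of the genes above background and a grey band from -0.66 to 0.63 for the central 95% of all genes above background. Ifitm1 (2.05) lies to the right of all 36 interferon-induced effector genes, and Ifitm3 (-0.76) lies near the medians of the myeloid (-0.61) and dendritic cell (-0.60) markers. Medians above background of lists not plotted were -0.49 for B-cell and plasma-cell, -0.54 for natural killer-cell and 0.05 for CD4 and regulatory T-cell markers.

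Genes whose products bind or modify IFITM proteins were read in the same way. Of 15 measured genes, all above background on at least 1 array, 1 passed 2-fold upwards and 1 passed 1.5-fold downwards. Over all genes above background, 0.552% were higher by 2-fold or more and 3.37% lower by 1.5-fold or more. The median of the 15 was -0.00107. Zdhhc2, a palmitoyltransferase of the family that attaches fatty acids to membrane proteins such as IFITM3, had 6.70 in CTXpre/CD4post and 5.04 in CTXpre, 3.17-fold higher. Nedd4, a ubiquitin ligase that marks IFITM3 for breakdown in human and mouse cells, had 6.52 in CTXpre/CD4post and 7.19 in CTXpre, 1.59-fold lower. Cd81, the tetraspanin partner of IFITM1, had 9.50 in CTXpre/CD4post and 10.01 in CTXpre. Cr2, a complement receptor of the CD81 complex on B cells, was below the bound in CTXpre and at least 1.10-fold higher. Zmpste24 (0.02), a membrane protease reported to act with IFITM proteins, and Vapa (-0.21), a membrane protein bound by IFITM3, differed little.

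The sort kept CD8-positive, Thy1.1-negative cells, a gate that most myeloid cells do not pass. Myeloid cells also express Ifitm3 and Ifitm6 in the mouse, and many of their markers had lower levels in CTXpre/CD4post than in CTXpre. Of 16 measured myeloid markers, all above background on at least 1 array, 8 lay past 1.5-fold on the lower side and 0 on the higher side, against 3.37% and 3.07% of all genes above background. Their median difference was -0.61, against 0.01 over those genes. The level summed over the list was 12.46 in CTXpre/CD4post and 12.72 in CTXpre on the log2 scale, a sum to which Ly6c2 contributed most. Without Ly6c2 and Ccr2, which activated T cells also express, the sum over the other 14 was 11.02 in CTXpre/CD4post and 11.84 in CTXpre. Spi1 contributed most to that sum, with 10.14 in CTXpre/CD4post and 10.99 in CTXpre. The lowest were the Fc receptor Fcgr3 (5.73 in CTXpre/CD4post and 6.91 in CTXpre), the pore-forming Mpeg1 (7.50 in CTXpre/CD4post and 8.62 in CTXpre), the oxidase subunit Cybb (7.03 in CTXpre/CD4post and 8.10 in CTXpre) and the adaptor Tyrobp (5.98 in CTXpre/CD4post and 7.01 in CTXpre). Ly6c2 (0.20) and Ccr2 (0.52) lay on the other side. Adgre1, a defining macrophage receptor, was close to the bound, at 4.49 in CTXpre/CD4post and 4.35 in CTXpre, and so was Cd14, at 4.66 in CTXpre/CD4post and 4.65 in CTXpre. The single levels of the list ran from 4.49 to 11.76 in CTXpre/CD4post and from 4.35 to 11.56 in CTXpre. Ifitm3 (-0.76) had a difference of the same sign as most of these markers and Ifitm1 (2.05) one of the opposite sign, while that of Ifitm6 (-0.32) lay within the scatter of genes of like level. The part of myeloid cells in the Ifitm3 and Ifitm6 values was not tested.

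Other cell types were read against the same shares, 3.37% of genes lower and 3.07% higher past 1.5-fold. Of 14 dendritic-cell markers, 7 lay past 1.5-fold on the lower side and 0 on the higher side, and the median was -0.60. The level summed over that list was 10.84 in CTXpre/CD4post and 11.37 in CTXpre on the log2 scale. Siglech, a receptor of plasmacytoid dendritic cells, had the largest difference, with 5.86 in CTXpre/CD4post and 7.18 in CTXpre. Bst2, also on the interferon-induced list, was the 1 dendritic-cell marker above 0, with 8.11 in CTXpre/CD4post and 7.64 in CTXpre. Of 11 B-cell and plasma-cell markers, 5 were past 1.5-fold on the lower side by measured levels, and the median was -0.49. With dim levels set to the bound, 4 were past it, without Sdc1, and the median was -0.35. The list had summed levels of 9.88 in CTXpre/CD4post and 10.42 in CTXpre. The antibody joining chain gene Jchain had 5.65 in CTXpre/CD4post and 7.82 in CTXpre. Of 6 natural killer-cell markers above background, 3 were past 1.5-fold on the lower side, Klrb1c, Fcer1g and Tyrobp, the last of which is also on the myeloid list. Klrb1c was below the bound in CTXpre/CD4post and at least 1.91-fold lower, and Gzma differed by -0.37. Eomes (-0.01) and Klre1 (0.04) were nearly level, and Ncr1 was below the bound on both arrays. The median was -0.54 over those 6 and -0.20 over all 8 measured. CD4 and regulatory T-cell markers went both ways. Of 8 above background, 1 was past 1.5-fold on the higher side, Cd40lg, and 3 on the lower side, among them Cd4 itself, which had 5.98 in CTXpre/CD4post and 7.55 in CTXpre. Cd40lg was below the bound in CTXpre and at least 2.78-fold higher. The parts of these cell types in the Ifitm values were not tested either.

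With 2 arrays, the likeness of another gene to Ifitm1 can only be the gap between their differences. Among genes above background on both arrays, the 5 with the smallest gap were Crmp1 (1.78), Fut7 (1.78), Sema6d (1.76), Zdhhc2 (1.67) and S100a6 (1.66), at gaps of 0.26 to 0.39. Crmp1 encodes a phosphoprotein of semaphorin signalling, Fut7 a fucosyltransferase of selectin ligands, Sema6d a semaphorin and S100a6 a calcium-binding protein. None of them belongs to the interferon-induced list, and all 5 lay below Ifitm1. A shared value over 2 arrays says nothing of shared control.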

How the data were processed

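RNA of endogenous CD8+ T cells was read on Clariom S mouse arrays of Affymetrix, with 1 biotin-labelled sample per array, RNA of 5 mice pooled on each, and 1 array per group by the treatment labels. The deposited values are log2 levels that the authors made by robust multi-array averaging (RMA), run in Affymetrix Power Tools. This corrects background, gives the arrays 1 common distribution by quantile normalization and combines the probes of a set, so a shift common to all genes cannot be seen. Tool versions and a genome build were not given in the sources used here. All columns were used (0 unused).

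Of 22206 probe sets, 19572 had 1 symbol in the platform annotation, 0 several and 2634 none. The probe set with the highest mean over both arrays stood for each of 19505 genes. Genes were counted at 2-fold, 1.5-fold and 3-fold among the 12851 above the background bound on at least 1 array. Counts use measured levels. Where 1 array was not above the bound, a fold is given as "at least N-fold". With 1 array per group no test was made and no p-value computed. The calculation was tested on simulated data. Members and lists were chosen with earlier results of these data known. Named genes are the members, their neighbours, the 5 nearest to Ifitm1 by difference, up to 4 genes per list with the largest differences and a fixed set of interferon pathway, IFITM partner and CD8 genes. Adgre1, Cd14, Spi1, Sdc1, Eomes, Klre1, Ncr1, Ly6c2, Ccr2, Ifnl2, Ifnl3 and the 5 genes above Ifitm1 were named after their values were seen. Protein sequences were not analysed here. Promoters and gene order came from RefSeq tables of GRCm38.p6. Alternatives were centring on the median, repeated quantile normalization, removal of a lowess trend (fraction 0.3), 32 added to linear values, other thresholds, the 99th percentile as bound, dim levels at the bound and no filter. Calculations used Python 3.11.15, pandas 2.3.3, NumPy 2.4.6 and statsmodels 0.14.6.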

Additional observations from a re-analysis of the deposited data

How the results depend on the processing

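Of 53 recomputed values, 50 stayed within the robust SD of all differences between the arrays (0.27) or kept their count, and 0 turned direction. All of them reuse the same 2 arrays, already quantile-normalized, so the tally speaks to processing and not to replication. Several could hardly move: centring shifts all differences alike, and a repeated quantile normalization changes little in such arrays. The tally therefore says little about stability. Adding 32 to the linear values, which shrinks differences of dim genes, gave 1.66 for Ifitm1 and 1.84 for its gap to the other members above background, in place of 2.05 and 2.36. The 1.5-fold threshold gave 1 lower member, Ifitm3, in place of 0. Over the 4 scalings tried, the difference of Ifitm1 ran from 1.66 to 2.05, that of Ifitm3 from -0.77 to -0.63, that of Ifitm2 from -0.04 to -0.02 and that of Ifitm6 from -0.33 to -0.18. The median of the interferon-induced effector genes ran from 0.12 to 0.16. That of the myeloid markers ran from -0.66, without Ly6c2 and Ccr2 (an alternative added after seeing the data), to -0.42 with 32 added. The count of members at least 2-fold higher was 1 under each scaling, bound and filter tried, and 1 member was also higher at the 1.5-fold and at the 3-fold threshold. Other probe sets of the members were not tried because each member has 1. No paired analysis was possible because each group had 1 array. The signal of Ifitm5 is below the bound, and Ifitm6 lies 0.80 above it in CTXpre/CD4post and 1.13 above it in CTXpre, so small differences of these dim genes have no order.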

Other observations

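The CD225 domain that IFITM proteins carry is shared by a wider set of membrane proteins, the dispanins. Of 10 listed relatives outside the Ifitm cluster, 7 were measured, all above background on both arrays, which does not show that they are expressed in these cells. None reached 1.5-fold (0 higher, 0 lower), against 3.07% higher and 3.37% lower of all genes above background. These counts are thus near the shares over all genes. The median difference of the 7 was -0.08. Trarg1, a partner of glucose transporter traffic in fat and muscle, had the largest difference, with 4.89 in CTXpre/CD4post and 5.40 in CTXpre. The synaptic genes Prrt1 and Syndig1l differed by -0.27 and -0.23. Ifitm7, a gene on another chromosome than the cluster, had 6.11 in CTXpre/CD4post and 5.95 in CTXpre.

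Among the interferon genes besides Ifng, the lambda interferons Ifnl2 (0.21) and Ifnl3 (0.22) lay above 0, and the alpha interferons Ifna1 (-0.25) and Ifna5 (-0.41) lay below it. These 4 probe sets were above the bound on both arrays and within 1.5-fold. Passing the bound does not show that these genes are expressed in the sorted cells.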
